A study of Homo sapiens with 22 samples.

Results

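The VEGF and PDGF ligands and receptors described here are 10 genes, chosen by their symbols with earlier results of these data known. They are the ligand genes VEGFA, VEGFB, VEGFC, PDGFA, PDGFB and PDGFC and the receptor genes FLT1, NRP1, PDGFRA and PDGFRB. All 10 were found in each of the 3 deposited gene tables, which list 33538 genes for the first experiment and 36601 genes for the others. Cultured melanoma cells were measured by droplet single-cell RNA sequencing in 3 experiments, and by ATAC-seq, which maps open chromatin, in another. WM989 is a BRAF-mutant human melanoma line, studied here without BRAF or MEK inhibitors. A rare state of these cells, called primed, survives targeted therapy more often than the drug-susceptible state. The first experiment holds WM989 cells carrying lentiviral lineage barcodes, expanded after a sort into a mixed population and an EGFR/NGFR-high population, in 8 chip wells that form 2 replicates, r1 (wells 1 to 4) and r2 (wells 5 to 8). By the methods each sorted culture was loaded into 2 chip wells, so wells come in pairs that share a culture and are not 8 independent samples. The second holds WM983B, another melanoma line, in 1 library, and the labels call the cells of the first and second experiments untreated. The third holds barcoded WM989 cells expanded in a well and then split over 4 plates, which were left untreated or given TGFB1 (the cytokine), an inhibitor of the TGF-β receptor kinases (TGFBRi) or an inhibitor of PI3K (PI3Ki), with 2 replicates each. The labels call 1 library of each treatment Mix and the other Primed, and how these match the replicates of the metadata is not known. The ATAC-seq libraries come from WM989 cells sorted as EGFR-High, NGFR-High, EGFR-NGFR-High or Mix, with 3 libraries each, and the methods name a sort negative for both markers beside the other 3, which no source used here ties to the name Mix. All cells came from culture, with no host tissue.

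VEGF ligands are secreted growth factors that act through the receptor tyrosine kinases FLT1, KDR and FLT4, with the neuropilins NRP1 and NRP2 as co-receptors. They are best known for driving the growth of blood vessels (VEGFA) and of lymphatic vessels (VEGFC). PDGF ligands act through the receptor tyrosine kinases PDGFRA and PDGFRB, which normally mark fibroblasts, pericytes and other mesenchymal cells, and PDGFRB is known as a receptor that melanoma cells can gain with acquired resistance to BRAF inhibitors.

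The first experiment holds 12531 cells and 750662838 unique molecular identifiers (UMIs, the counted molecules), with 408 to 3841 cells per well. The WM983B library holds 1449 cells and 102738398 UMIs, and the treatment experiment 40021 cells and 685641196 UMIs, with 70239657 to 122420544 UMIs per library. The state of each cell was taken from the deposited metadata, which class 2843 WM989 cells as primed and 9688 as drug-susceptible, and 731 and 718 WM983B cells. Summed over 6 melanocytic markers (SOX10, MITF, MLANA, PMEL, TYR and DCT), WM989 cells had 4880 CPM (counts per 1000000 UMIs) in the drug-susceptible and 202 CPM in the primed state, while 6 markers of the primed state (NT5E, AXL, EGFR, NGFR, FN1 and SERPINE2) had 300.2 and 4489 CPM. FN1 alone had 3771 CPM in the primed WM989 cells. In WM983B the melanocytic sums were 2046 and 745 CPM. Only MLANA, PMEL and DCT of these 6 markers had a ratio of primed to drug-susceptible cells below 0.5 there, while all 6 did in WM989. SOX10 had 208 CPM in drug-susceptible and 192 CPM in primed WM983B cells. The sums of the primed markers in WM983B were 1459 and 3241 CPM, and EGFR and FN1 stayed under a ratio of 2. Markers of cell types that normally carry these receptors were also measured. 6 pericyte and fibroblast markers (RGS5, DCN, LUM, CSPG4, COL1A1 and PDGFRB itself) summed to 84.5 CPM in drug-susceptible and 212 CPM in primed WM989 cells. COL1A1 made up most of the second sum (160 CPM, against 1.69 CPM), DCN (6.19 against 1.33 CPM) and RGS5 (1.42 against 0.337 CPM) were also higher in the primed cells of 8 of 8 wells, and LUM and CSPG4 were lower in 8 of 8. 6 endothelial markers summed to 0.919 and 25.7 CPM, of which PECAM1 and VWF were higher in primed cells and CDH5, TEK, TIE1 and KDR stayed under 1 CPM in both states. The metadata class 73.7% of primed and 25.5% of drug-susceptible WM989 cells as G1. The part of these markers and of the cell cycle in the values that follow was not tested. Single cell barcodes that occurred in more than 1 library covered 38 cells of the first and 388 of the treatment experiment, and leaving them out changed no call of a member.

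In WM989, 9 of the 10 members had a CPM more than 2 times as high in primed as in drug-susceptible cells in both r1 and r2, and VEGFB was the exception. No member had a ratio below 0.5. Among the 13194 genes with at least 1 CPM in a state, 12.1% had a ratio above 2 in both replicates and 7.01% a ratio below 0.5. Of the 8 members at that level, 7 had a ratio above 2. The median log2 ratio of the members was 4.33, beside 0.07 over all these genes. States were called from the same counts, so these ratios are a description and carry no test. The members were chosen with earlier results of these data known, and the paper names VEGFA, VEGFC and PDGFA as upregulated in the primed state. The shares over all genes are thus given for scale and do not test the list. The 95% intervals given with ratios are exact and cover counting error only. Pooled ratios sum wells with unlike shares of primed cells, so they mix differences between wells with those between states.

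Among the VEGF ligands, VEGFA and VEGFC went with the primed state and VEGFB did not. VEGFA (chr6:43770184-43786487 in hg38) had 121, 212 and 343 CPM as the lowest, median and highest of 8 wells in primed cells and 7.68, 11.1 and 18.7 CPM in drug-susceptible cells. Primed cells were above drug-susceptible cells in 8 of 8 wells and the wells of both states did not overlap. Summed over all wells, VEGFA had 255 and 10.4 CPM, a ratio of 24.6 (23.9 to 25.3), with 23.8 in r1 and 23.2 in r2. Ratios within wells ran from 15.6 to 26.9, with a median of 17.4. VEGFC (chr4:176683538-176792922) is the lymphatic growth factor of the family. Its primed cells had 53.1, 68.3 and 112 CPM in the wells, against 1.2, 2.55 and 4.81 CPM in the drug-susceptible state. Pooled, VEGFC was 41.1 times as high (r1 35.8, r2 42.1), while within wells its ratio ran from 18.8 to 45.8, with a median of 25.3. VEGFB (chr11:64234584-64239264), a ligand that binds FLT1, was present at nearly the same level in both states. Wells gave 101, 138 and 214 CPM (primed) and 109, 132 and 178 CPM (drug-susceptible), with well ratios between 0.891 and 1.27. The wells of both states overlapped for VEGFB, and primed cells were above in 6 of 8 wells.

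All 3 PDGF ligand genes were higher in primed WM989 cells, but PDGFB was close to the counting limit. PDGFA (chr7:497258-520296), which binds PDGFRA, had 47.6, 52.0 and 60.4 CPM in the primed and 5.08, 8.88 and 12.1 CPM in the drug-susceptible cells of the wells. The primed values were the most even among the wells of the members that were higher in primed cells, within a range of 47.6 to 60.4 CPM, and r1 gave a ratio of 8.98 and r2 of 5.69. PDGFC (chr4:156760454-156971799), a ligand released by cleavage of its inhibitory domain, had 10.8, 18.7 and 29.4 CPM against 0.808, 1.59 and 2.07 CPM. That is a ratio of 16.4 (r1 15.0, r2 15.5). PDGFB (chr22:39223359-39244982), the ligand of PDGFRB, was found in 25 counts of primed and 5 counts of drug-susceptible cells. That ratio of 14.5 had an interval of 5.46 to 48.6, and primed cells were above in only 5 of 8 wells.

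Among the receptors, NRP1 and PDGFRA had the largest ratios of all members. NRP1 (chr10:33177492-33336262), a co-receptor of VEGF and of class 3 semaphorins, had 11.1, 34.7 and 84.7 CPM in the primed and 0.0527, 0.253 and 2.47 CPM in the drug-susceptible cells of the wells. Pooled, NRP1 was 213 times as high in primed cells, and r1 (480) lay far above r2 (126). Within single wells the NRP1 ratio was 28.8, 127 and 249 as lowest, median and highest, so the r1 value lay above every well. PDGFRA (chr4:54229280-54298245) had 8.36, 35.5 and 65.0 CPM against 0.381, 0.980 and 2.47 CPM. Pooled wells gave a ratio of 64.5 (r1 73.9, r2 52.3), and the wells of the states did not overlap. Within single wells the PDGFRA ratio was lower, at 21.9, 29.6 and 47.6 as lowest, median and highest. PDGFRB (chr5:150113839-150155872) had 9.89, 13.5 and 19.5 CPM against 0.560, 0.949 and 1.74 CPM, which pooled to a ratio of 14.8 (r1 14.8, r2 17.1). FLT1 (chr13:28300346-28495145), the tyrosine kinase receptor of VEGFA and VEGFB, was low, with 0.212, 0.880 and 2.64 CPM in the primed and 0.0654, 0.272 and 0.485 CPM in the drug-susceptible state. Its states overlapped across wells, though primed cells were above within 8 of 8 wells. In the primed cells of wells 1 to 4 (r1) NRP1 had 61.2, 48.1, 13.1 and 11.1 CPM, and in wells 5 to 8 (r2) 84.7, 71.1, 18.2 and 21.4 CPM. Primed cells made up 56.9%, 62.4%, 7.87% and 6.85% of wells 1 to 4 and 79.7%, 76.9%, 9.17% and 9.42% of wells 5 to 8, so the NRP1 level was higher in the 4 wells rich in primed cells. The labels do not give the sort of a well, and its part in these values was not tested.

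**Figure D1:**
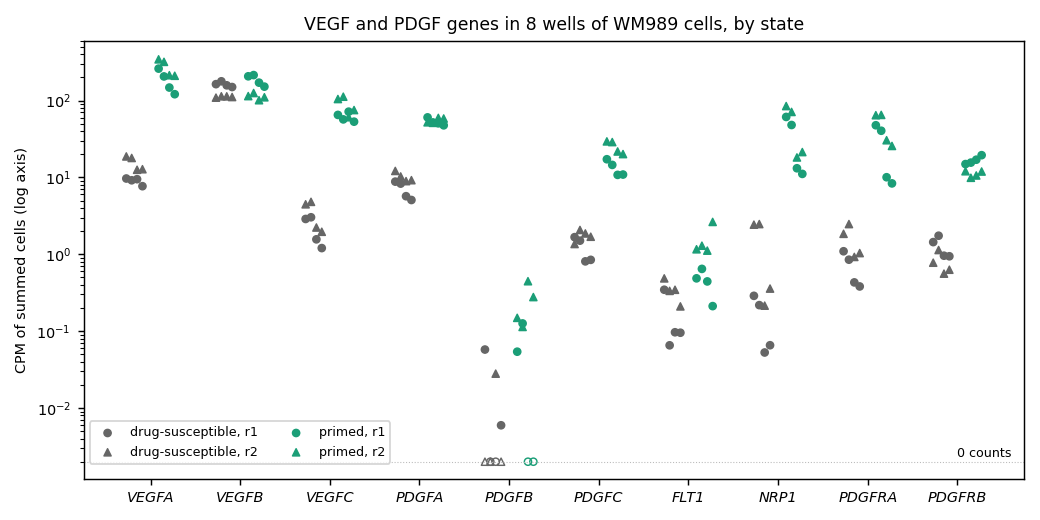
Level of each member in CPM (log axis) in the primed (green) and drug-susceptible (grey) cells of 8 WM989 wells, circles for r1 and triangles for r2; open symbols on the dotted line are wells with 0 counts. All members except VEGFB, PDGFB and FLT1 show 2 separate groups of points, and the VEGFB points of both states lie between 101 and 214 CPM.

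The primed state of WM989 comprises clusters 2, 8 and 9 of the deposited metadata, and the members were not spread evenly over them. VEGFA had 265 CPM in cluster 2, 135 CPM in cluster 8 and 309 CPM in cluster 9. NRP1 had 66.8, 15.7 and 55.1 CPM and PDGFRA 53.3, 21.2 and 50.1 CPM in the same order, so cluster 8 was the lowest for all 3 genes. PDGFRB followed another order, with 15.8, 13.8 and 7.79 CPM. PDGFA (58.5, 45.2 and 44.8 CPM) and VEGFC (87.5, 59.9 and 74.9 CPM) varied less. Among the drug-susceptible clusters, cluster 4 had the highest PDGFA (13.6 CPM) and PDGFRB (2.07 CPM), and cluster 10 the highest VEGFA (24.1 CPM) and VEGFC (4.36 CPM).

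At the level of single cells, VEGFA was detected (at least 1 UMI) in 96.3% of the primed and 36.8% of the drug-susceptible WM989 cells, whose depths had medians of 58253 and 52835 UMIs. NRP1 was found in 71.1% and 1.30%, PDGFRA in 67.0% and 3.88%, and PDGFRB in 49.2% and 4.68% of cells. VEGFC was found in 84.0% and 9.32%, PDGFA in 85.3% and 26.6%, and PDGFC in 59.8% and 6.88%. VEGFB was found in nearly every cell (98.7% and 98.0%), and FLT1 in few (5.28% and 1.01%). The share of cells with UMIs of both a ligand and its receptor was higher in the primed state. Free RNA in the droplets can add such UMIs and was not measured, and no cell type known to lack these genes was present. In the drug-susceptible cells of wells 5 and 6, which were rich in primed cells, NRP1 had 2.43 and 2.47 CPM. VEGFA and NRP1 were detected together in 70.0% of the primed cells and 0.929% of the others, and in 28.2% and 0.0516% when each cell was thinned to 10000 UMIs. For PDGFA with PDGFRA the shares were 59.7% and 1.73% (thinned 11.4% and 0.145%), and for PDGFC with PDGFRA 45.7% and 0.568% (thinned 6.47% and 0.0206%). Both PDGF receptors were counted together in 35.5% and 0.310% (thinned 3.48% and 0.0206%). These are shares of cells with a UMI, and a cell without one may still hold the transcript.

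Of the other 7 genes of both families, 4 had at least 1 CPM in a state, and 0 of 4 passed a ratio of 2 or 0.5 in both replicates. NRP2, the second neuropilin, had 155 CPM (primed) and 74.3 CPM (drug-susceptible), with ratios of 2.63 in r1 and 1.55 in r2, and was higher in the primed cells of 8 of 8 wells. PGF, a ligand of FLT1, had 1.72 and 4.44 CPM, with ratios of 0.529 in r1 and 0.242 in r2. PDGFRL, a receptor-like gene, had 14.7 and 7.71 CPM and was also higher in 8 of 8 wells, and PDGFD, a ligand of PDGFRB, 2.03 and 1.87 CPM. KDR, the main endothelial receptor of VEGFA, had 0.224 and 0.156 CPM, while FLT4, the receptor of VEGFC, had 0.0260 and 0.0143 CPM, and VEGFD was found in 5 and 74 counts. Thus the state with most VEGFC counts had almost no counts of its tyrosine kinase receptor. Of 14 partners and processing genes at 1 CPM, 4 had a ratio above 2 in both replicates (SEMA3A, SEMA3C, CCBE1 and LRP1) and 2 a ratio below 0.5 (PLXND1 and PLAT). SEMA3A, a semaphorin ligand of NRP1, had 33.7 and 6.86 CPM, and CCBE1, a cofactor of VEGFC processing, 12.7 and 1.62 CPM. LRP1, a large endocytic receptor that associates with PDGFRB, had 83.8 and 14.8 CPM. PLAT, the tissue plasminogen activator that cleaves PDGFC, had 22.1 and 59.7 CPM. None of 12 receptor signalling genes (PIK3CA, PLCG1, GRB2, SRC and others) passed either ratio.

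Across the 22 sums of 11 clusters and 2 replicates, the members were compared with 7539 genes by Pearson's correlation of log2(CPM + 1), as a description of likeness only, since these sums share libraries and states. VEGFA was most like HRH1 (r = 0.988) and PDGFA most like SLC39A13 (0.984). NRP1 was closest to SIRPB1 (0.996). PDGFRA had STEAP3 (0.992) and then the member NRP1 (0.992), and PDGFC had FZD8 (0.988), and PDGFRA was next but one (0.987). PDGFRB had its closest gene in RRAS (0.978). VEGFB was closest to TEN1 (0.945), and its correlation with VEGFA was 0.106.

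WM983B cells gave smaller ratios. Of the 10 members, 7 had more than 2 times the CPM in primed cells (VEGFA, VEGFC, PDGFA, PDGFB, PDGFRB, FLT1 and NRP1) and 0 had a ratio below 0.5, where 2.87% and 1.37% of 13769 genes passed the same limits. With 1 library there is no replicate check. VEGFA had 42.2 CPM (primed) and 20.1 CPM (drug-susceptible), a ratio of 2.1 (1.95 to 2.26), and VEGFC 5.57 and 2.13 CPM, a ratio of 2.61 (2.09 to 3.28). PDGFA had 92.8 and 29.8 CPM, a ratio of 3.11 (2.94 to 3.30). PDGFB, hardly counted in WM989, had 6.43 and 1.21 CPM in WM983B, a ratio of 5.33 (4.07 to 7.08). In the same order the receptors gave 17.0 and 7.27 CPM for NRP1 (ratio 2.34, 2.07 to 2.65), 2.74 and 0.928 CPM for FLT1 (2.96, 2.12 to 4.18) and 1.09 and 0.352 CPM for PDGFRB (3.08, 1.79 to 5.51). PDGFRA, one of the genes with the largest ratio in WM989, was counted 13 times in primed and 10 times in drug-susceptible WM983B cells. PDGFC had 4.36 and 2.84 CPM, a ratio of 1.54, and VEGFB was lower in primed cells, with 100.2 and 162 CPM and a ratio of 0.620 (0.599 to 0.642).

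The WM983B clusters did not divide by state for every member. PDGFB had 7.24 CPM in primed cluster 0 but 1.09 CPM in primed cluster 2, and 5.61 CPM in drug-susceptible cluster 3 but 0.495 CPM in drug-susceptible cluster 1. PDGFA gave 99.8 and 47.1 CPM in the primed clusters 0 and 2 and 23 and 71.9 CPM in the drug-susceptible clusters 1 and 3, so cluster 3 was above primed cluster 2 for both ligands. NRP1 was highest in cluster 2, at 25.9 CPM, against 15.7, 6.44 and 12.4 CPM in clusters 0, 1 and 3. In WM983B, VEGFA and NRP1 were detected together in 47.3% of the primed and 23.5% of the drug-susceptible cells (thinned to 30000 UMIs, 22.3% and 8.22%). KDR, the endothelial VEGFA receptor, had 1.86 and 0.909 CPM, a ratio of 2.05 (1.43 to 2.96), while NRP2 (179 and 126 CPM) and PGF (23.1 and 23.6 CPM) stayed under a ratio of 2. FLT4 was found in 0 counts in both states. Of 13 partners at 1 CPM, PLXNA2 and PLAT had a ratio above 2 and none was below 0.5, and PLAT, with 114 and 54.8 CPM, went the other way than in WM989. None of the 12 signalling genes passed either ratio.

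In the treatment experiment the untreated libraries also held differences between states, in other WM989 cells. States were again called from the counts themselves, by clusters the paper chose for known primed marker genes. These values are thus a description and carry no test. VEGFA had 123 CPM (r1) and 147 CPM (r2) in primed cells and 13 and 12.9 CPM in drug-susceptible cells. VEGFC had 31.3 and 31.0 CPM against 0.664 and 0.695 CPM, and NRP1 14.9 and 24.1 CPM against 0.117 and 0.219 CPM. PDGFRB had 11.9 and 11.7 CPM against 0.717 and 0.682 CPM. VEGFB was lower in primed cells here, with 85.7 and 95 CPM against 118 and 127 CPM. PDGFRA was found in only 2 and 14 counts of untreated primed cells, at 1.49 and 5.63 CPM. Untreated libraries held 94 and 165 primed cells.

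TGFB1 raised all members except VEGFB when whole libraries were compared. Of 10 members, 9 were called higher and 0 lower, where 16.3% of 18389 genes were higher and 12.7% lower (edgeR quasi-likelihood test, two-sided, Benjamini-Hochberg adjusted over all genes, threshold 0.05). The median log2 change of the members was 2.5, against 0.01 over all genes. Primed cells made up 2.26% and 4.47% of the untreated libraries and 29.1% and 31.3% of the TGFB1 libraries, and in sums over all cells a larger share of primed cells cannot be told apart from more RNA per cell. All 3 treatments share the untreated libraries. States were called from the counts after treatment, so tests within a state compare cells classed alike and do not follow the same cells. The methods describe 2 replicates grown in parallel, whereas the labels call the 2 sets of libraries Mix and Primed, and whether r1 and r2 are those sets is not known, so the replicates may differ in how their cells were chosen. With 1 library of each, p-values measure the spread between 2 samples a treatment around a shared replicate term.

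Among the ligands under TGFB1, VEGFA had 14.8 and 17.1 CPM in the untreated and 27.3 and 40.6 CPM in the TGFB1 libraries, a log2 change of 1.06 ± 0.08 (SE; edgeR adjusted p = 4.99e-10). VEGFC had 1.19 and 1.63 CPM against 13 and 15.3 CPM, a log2 change of 3.31 ± 0.11 (edgeR adjusted p = 5.74e-16). PDGFA had 10.7 and 11.5 CPM against 32.8 and 32 CPM, a log2 change of 1.53 ± 0.08 (edgeR adjusted p = 7.12e-13). All 3 ligands were higher in both TGFB1 libraries than in any of the other 6 libraries. PDGFC, with 1.31 and 1.63 CPM untreated and 7.71 and 7.44 CPM under TGFB1, rose by 2.35 ± 0.12 on the log2 scale (edgeR adjusted p = 6.99e-13). PDGFB was found in 0 and 2 counts of the untreated libraries and in 188 and 150 counts of the TGFB1 libraries. It passed the filter on low counts through the TGFB1 libraries alone and could not come out lower, so its call is a description. Its pooled ratio was 162, with a counting interval of 44.6 to 1346. VEGFB had 117 and 126 CPM untreated and 113 and 118 CPM under TGFB1 (log2 change -0.08 ± 0.07, edgeR adjusted p = 0.426).

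Of the receptors, PDGFRB changed most under TGFB1, from 0.909 and 1.02 CPM to 15.3 and 14.9 CPM, a log2 change of 3.95 ± 0.11 (edgeR adjusted p = 3.36e-17). FLT1 had 0.115 and 0.150 CPM against 1.0 and 0.813 CPM, a log2 change of 2.74 ± 0.34 (edgeR adjusted p = 1.24e-06). NRP1 had 0.371 and 0.960 CPM against 2.86 and 5.40 CPM, a log2 change of 2.65 ± 0.19 (edgeR adjusted p = 2.75e-10). For NRP1, as for VEGFA and VEGFC, r2 was higher than r1 in all 4 treatments. PDGFRA had 0.346 and 0.461 CPM against 0.801 and 1.16 CPM, a log2 change of 1.26 ± 0.21 (edgeR adjusted p = 8.14e-05).

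**Figure D2:**
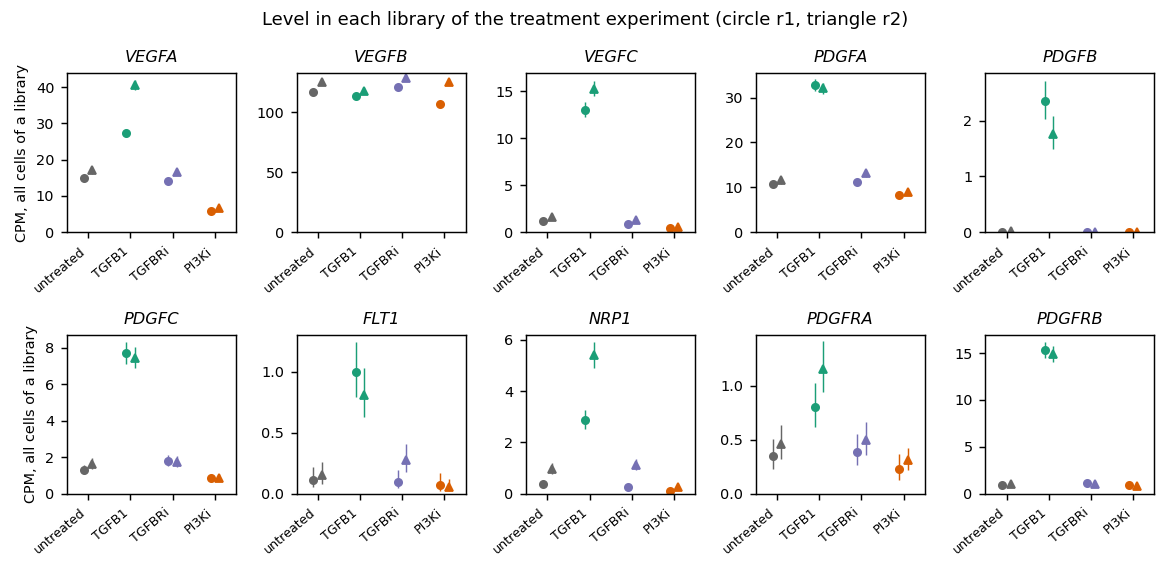
CPM of each member over all cells of the 8 libraries of the treatment experiment, circles for r1 and triangles for r2, with 95% counting intervals as bars. In every panel except VEGFB the TGFB1 points are the highest, and the PI3Ki points are the lowest for VEGFA (5.92 and 6.61 CPM) and VEGFC (0.498 and 0.515 CPM).

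Within the cells classed as drug-susceptible, part of the members were higher under TGFB1. The TGFB1 libraries held a larger share of primed cells than the untreated ones. Free RNA in the droplets was not measured, and its part in these changes was not tested. VEGFC, PDGFA, PDGFC, PDGFRB, FLT1 and NRP1 were called higher, 6 of the 9 members tested, and 0 lower, where 8.56% of 17914 genes were higher and 6.32% lower. PDGFA had 10.0 and 10.3 CPM untreated and 19.5 and 17.7 CPM under TGFB1, a log2 change of 0.86 ± 0.09 (edgeR adjusted p = 7.95e-08). VEGFC had 0.664 and 0.695 CPM against 1.39 and 1.55 CPM, a log2 change of 1.1 ± 0.18 (edgeR adjusted p = 0.00014). FLT1, the VEGF receptor, had 0.0782 and 0.129 CPM against 0.819 and 0.688 CPM, a log2 change of 2.83 ± 0.38 (edgeR adjusted p = 8.24e-06). FLT1 thus rose in the drug-susceptible cells by about as much as over all cells. PDGFRB had 0.717 and 0.682 CPM against 1.79 and 1.31 CPM, a log2 change of 1.13 ± 0.18 (edgeR adjusted p = 9.24e-05), and NRP1 0.117 and 0.219 CPM against 0.401 and 0.688 CPM, a log2 change of 1.67 ± 0.33 (edgeR adjusted p = 0.000934). DESeq2 called 3 members and gave no adjusted p for FLT1 and NRP1. PDGFC had a smaller change of 0.49 ± 0.17 (edgeR adjusted p = 0.0457), which lost its call under DESeq2 (adjusted p = 0.232), without the replicate block (adjusted p = 0.12) and without either PI3Ki library, either TGFB1 library or the untreated replicate 1 library (edgeR adjusted p from 0.054 to 0.477). NRP1 lost its call without the replicate block (edgeR adjusted p = 0.071), which left 4 of the 6 calls, and without the untreated replicate 2 library (edgeR adjusted p = 0.063). VEGFA had 13 and 12.9 CPM untreated and 11.2 and 14.0 CPM under TGFB1 (log2 change -0.06 ± 0.08, edgeR adjusted p = 0.706). In clusters, 3801 TGFB1 and 115 untreated cells were in cluster 3, and its part in the changes was not tested. The sums of 6 primed markers in these same cells were 234 and 295 CPM untreated and 1502 and 1265 CPM under TGFB1, and their part in the changes was not tested. Over the drug-susceptible cells of all treatments SERPINE2 (263 CPM) and FN1 (158 CPM) made up most of this sum.

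Within the primed cells under TGFB1, PDGFRB was called higher in every alternative run, while the calls of VEGFA, VEGFC, PDGFA and PDGFC each depended on the fit. Primed cells were classed from these same counts after treatment, and every run kept that classing, so no run checks it. In the fit with all libraries VEGFC, PDGFA, PDGFB, PDGFC and PDGFRB were called higher and VEGFA lower, 6 of the 8 members tested, where 6.21% of 10930 genes were higher and 7.09% lower. PDGFRB had 11.9 and 11.7 CPM untreated and 55.6 and 52.9 CPM under TGFB1, a log2 change of 2.27 ± 0.20 (edgeR adjusted p = 8.16e-12). VEGFC had 31.3 and 31.0 CPM against 47.6 and 53.6 CPM (log2 change 0.81 ± 0.17, edgeR adjusted p = 0.000495), PDGFA 48.4 and 51.5 CPM against 72.4 and 72.1 CPM (0.61 ± 0.15, edgeR adjusted p = 0.00263) and PDGFC 15.7 and 11.7 CPM against 25.3 and 23.8 CPM (0.96 ± 0.23, edgeR adjusted p = 0.00222). PDGFB was found in 1 count of untreated and 329 counts of TGFB1 primed cells, a ratio of 29.6 with an interval of 5.28 to 1174. It passed the filter on low counts through the TGFB1 libraries alone and could not come out lower, so its call is a description. VEGFA had 123 and 147 CPM untreated and 75.5 and 115 CPM under TGFB1, a log2 change of -0.43 ± 0.13 (edgeR adjusted p = 0.0217). That call was lost under DESeq2 (adjusted p = 0.161), without the replicate block (adjusted p = 0.097), without the filter on low counts (adjusted p = 0.165) and when any untreated or TGFB1 library was left out. DESeq2 called 3 members and lost VEGFC (adjusted p = 0.0519) and PDGFC (adjusted p = 0.116) as well. VEGFC lost its call without the TGFB1 replicate 1 (edgeR adjusted p = 0.067) or the untreated replicate 2 library (edgeR adjusted p = 0.189). PDGFA lost its call without the TGFB1 replicate 1 or either untreated library (edgeR adjusted p from 0.067 to 0.171), and PDGFC without the TGFB1 replicate 2 or the untreated replicate 2 library (edgeR adjusted p = 0.162 and 0.194). Without the TGFB1 replicate 1 or the untreated replicate 2 library the count of called members fell from 6 to 2. PDGFB was too low to be tested without the TGFB1 replicate 1 library and was called in every other alternative. Of the pericyte and fibroblast markers, COL1A1 had 54.4 and 41.9 CPM in untreated and 165 and 177 CPM in TGFB1 primed cells, while DCN, RGS5 and CSPG4 were lower in both TGFB1 libraries. The sums of 6 primed markers were 4516 and 5172 CPM in untreated and 10509 and 10641 CPM in TGFB1 primed cells, and those of 6 melanocytic markers 1002 and 834 CPM against 488 and 548 CPM. Over the primed cells of all treatments FN1 (7561 CPM) and SERPINE2 (1587 CPM) made up most of the primed sum, and NT5E, the next, had 109 CPM. The paper reports that NGFR was less high in TGFB1-induced than in untreated primed cells, while FN1 seemed higher. The part of these markers in the members' changes was not tested. Different clusters held most primed cells of each treatment, cluster 10 in the untreated libraries (248 cells, against 11 in cluster 4) and cluster 4 under TGFB1 (3254 cells, against 80 in cluster 10). The test thus largely compares cluster 4 with cluster 10, and cluster and treatment cannot be told apart in it.

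**Figure D3:**
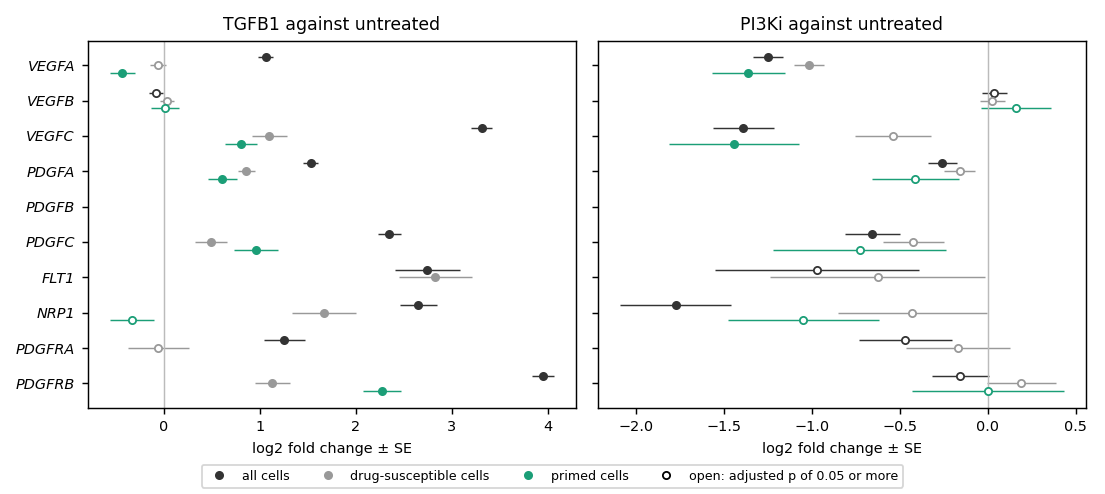
Log2 fold change with its SE for TGFB1 (left) and PI3Ki (right) against untreated, over all cells (black), drug-susceptible cells (grey) and primed cells (green), filled where the adjusted p was below 0.05; PDGFB is left out because the untreated libraries held 2 counts. The TGFB1 change of VEGFA is 1.06 over all cells, -0.06 in drug-susceptible and -0.43 in primed cells.

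The TGFB1 changes of 3 members differed between primed and drug-susceptible cells by a test of the difference itself, where 6.78% of 17325 genes gave a higher and 5.54% a lower change in primed cells. States were called from the counts after treatment, and most primed cells were in cluster 4 under TGFB1 (3254) and in cluster 10 untreated (248). The test thus compares cells classed as primed in each treatment and does not follow the same cells. Free RNA in the droplets was not measured, and its part in the drug-susceptible values was not tested. PDGFRB changed more in primed cells, by 1.22 ± 0.29 on the log2 scale (edgeR adjusted p = 0.00084). NRP1 changed less in primed cells, with a difference of -1.95 ± 0.39 (edgeR adjusted p = 5.49e-05), its primed CPM being 14.9 and 24.1 untreated and 10.2 and 18.6 under TGFB1. The difference for VEGFA was -0.33 ± 0.11 (edgeR adjusted p = 0.0306), and it was lost under DESeq2 (adjusted p = 0.313), without the filter on low counts (adjusted p = 0.071) and without either TGFB1 library or the untreated replicate 2 library. Without the untreated replicate 2 library FLT1 was called instead, with a lower change in primed cells (edgeR adjusted p = 0.0497, against 0.078 with all libraries). NRP2, the other neuropilin, had 146 and 166 CPM in untreated and 344 and 355 CPM in TGFB1 primed cells (log2 change 1.24 ± 0.13, edgeR adjusted p = 3.03e-10), and its difference between states was 1.47 ± 0.09 (edgeR adjusted p = 8.77e-29). The 2 neuropilins thus differed in opposite directions.

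By cluster, several members differed between the primed clusters 4 and 10. Of the 3270 cells of cluster 4, 3254 came from TGFB1 libraries. Cluster 10 held 389 TGFBRi, 248 untreated, 90 PI3Ki and 80 TGFB1 cells, so cluster and treatment cannot be told apart between these clusters. VEGFB was lower in both (85.9 and 98.7 CPM) than in the drug-susceptible clusters, which had 103 to 230 CPM. Cluster 4, of 3270 cells, had 54.9 CPM of PDGFRB, 51.7 CPM of VEGFC, 24.9 CPM of PDGFC and 7.88 CPM of PDGFB. Cluster 10, of 807 cells, had 9.99, 20.4, 10.2 and 0.291 CPM of these genes. VEGFA (96.9 and 109 CPM), NRP1 (14.7 and 17.7 CPM), PDGFRA (2.90 and 3.98 CPM) and FLT1 (1.34 and 1.16 CPM) were close between both. Drug-susceptible cluster 3, of 4007 cells of which 3801 came from TGFB1 libraries, had 27.2 CPM of PDGFA and 1.16 CPM of FLT1, the same FLT1 level as primed cluster 10. Clusters were made from these counts, so the values are a description.

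**Figure D4:**
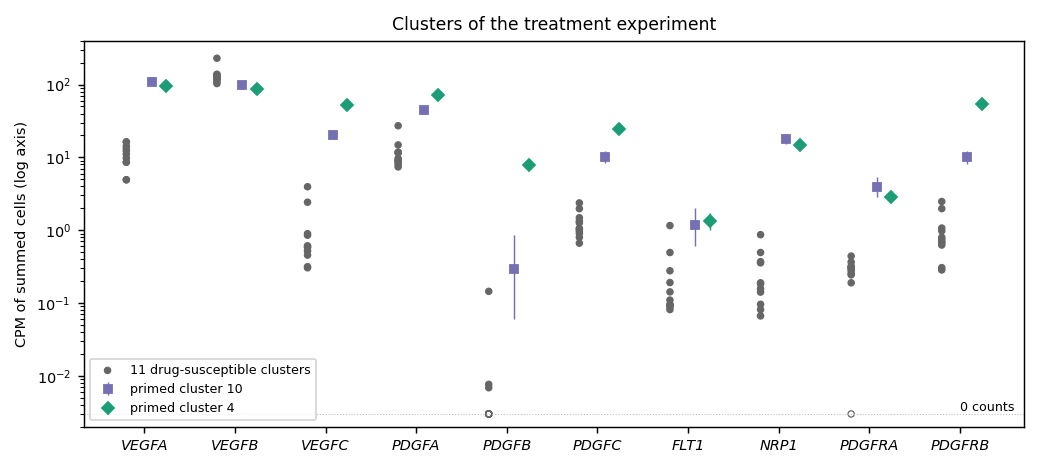
CPM of each member (log axis) summed over the cells of each cluster of the treatment experiment, with the 11 drug-susceptible clusters as grey points and the primed clusters 10 and 4 as squares and diamonds with 95% counting intervals; open circles on the dotted line are clusters with 0 counts. PDGFRB is at 54.9 CPM in cluster 4 and 9.99 CPM in cluster 10, while VEGFA is at 96.9 and 109 CPM.

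Under PI3Ki, VEGFA and VEGFC were called lower over all cells in every alternative run, while the calls of PDGFA, PDGFC and NRP1 depended on the fit. Over all cells 5 of 10 members were called lower (VEGFA, VEGFC, PDGFA, PDGFC and NRP1) and 0 higher, where 6.83% of genes were lower and 5.83% higher. VEGFA had 14.8 and 17.1 CPM untreated and 5.92 and 6.61 CPM under PI3Ki, a log2 change of -1.25 ± 0.09 (edgeR adjusted p = 1.99e-09). VEGFC had 1.19 and 1.63 CPM against 0.498 and 0.515 CPM, a log2 change of -1.39 ± 0.17 (edgeR adjusted p = 9.23e-06). NRP1 had 0.371 and 0.960 CPM against 0.0854 and 0.261 CPM, a log2 change of -1.78 ± 0.32 (edgeR adjusted p = 0.000567). PDGFC (-0.66 ± 0.16, edgeR adjusted p = 0.00723) and PDGFA (-0.26 ± 0.08, edgeR adjusted p = 0.0407) changed less. Without the replicate block 3 were called, with NRP1 (edgeR adjusted p = 0.244) and PDGFA (edgeR adjusted p = 0.165) lost, and DESeq2 called 4, with PDGFA lost (adjusted p = 0.0844). Leaving out the PI3Ki replicate 1, the PI3Ki replicate 2 or the untreated replicate 2 library left 3 calls, with PDGFA and PDGFC lost, and leaving out the untreated replicate 1 library left 4, with PDGFA lost. Neither PDGF ligand was called within either state. Primed cells made up 0.647% and 1.21% of the PI3Ki libraries, fewer than untreated.

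Within drug-susceptible cells PI3Ki lowered VEGFA, and no other of the 9 members tested passed, where 6.22% of genes were lower and 5.89% higher. VEGFA had 13 and 12.9 CPM untreated and 5.69 and 6.22 CPM under PI3Ki, a log2 change of -1.02 ± 0.08 (edgeR adjusted p = 1.42e-08). Every alternative run kept this call. The drug-susceptible cells of both treatments were spread differently over clusters, with 2239 PI3Ki and 168 untreated cells in cluster 6 and 1873 and 2971 in cluster 0, and the part of this in the change was not tested. Their sums of 6 primed markers were 234 and 295 CPM untreated and 170 and 193 CPM under PI3Ki. Those of 6 melanocytic markers were 4619 and 4627 CPM against 5568 and 5905 CPM, and the part of these markers was not tested. VEGFC did not pass (-0.54 ± 0.22, edgeR adjusted p = 0.111). In primed cells VEGFA and VEGFC were called lower, 2 of the 8 members tested, and 0 higher, where 1.32% of genes were lower and 0.467% higher. VEGFA had 123 and 147 CPM untreated and 63.1 and 55.0 CPM under PI3Ki (-1.36 ± 0.21, edgeR adjusted p = 4.94e-05), and VEGFC 31.3 and 31.0 CPM against 7.01 and 13.5 CPM (-1.44 ± 0.37, edgeR adjusted p = 0.0259). DESeq2 called VEGFA and gave no adjusted p for VEGFC. VEGFC also lost its call without the replicate block (edgeR adjusted p = 0.085). The PI3Ki libraries held only 25 and 70 primed cells. The sums of 6 melanocytic markers were 1002 and 834 CPM in untreated and 2881 and 1815 CPM in PI3Ki primed cells, and those of 6 primed markers 4516 and 5172 CPM against 3312 and 3746 CPM, and their part in the changes was not tested. Without the PI3Ki replicate 2 library neither gene passed (adjusted p = 0.193 and 0.229), and without the PI3Ki replicate 1 or the untreated replicate 1 library only VEGFA did. A difference between the PI3Ki changes of the 2 states was not tested.

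TGFBRi changed no member past the threshold. Of 10 members over all cells 0 were called by edgeR and 0 by DESeq2, with 1 at an unadjusted p under 0.05, where 1.09% of genes were higher and 1.45% lower. Log2 changes lay between -0.32 and 0.51. VEGFC had 1.19 and 1.63 CPM untreated and 0.921 and 1.32 CPM under TGFBRi (-0.32 ± 0.15, edgeR adjusted p = 0.376), and VEGFA 14.2 and 16.7 CPM under TGFBRi, beside 14.8 and 17.1 CPM. In drug-susceptible cells 0 of 9 members were called by edgeR or DESeq2 (1 at an unadjusted p under 0.05), where 1.22% of genes were higher and 1.59% lower. In primed cells 0 of 8 were called by either tool (2 at an unadjusted p under 0.05), where 0.0732% were higher and 0.302% lower. There VEGFC had 13.3 and 20.5 CPM and VEGFA 90.7 and 112 CPM, below the untreated values in each replicate.

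For the other genes of both families, under TGFB1 over all cells NRP2 (0.47 ± 0.06, edgeR adjusted p = 4.22e-06) and KDR (1.67 ± 0.41, edgeR adjusted p = 0.0033) were called higher and VEGFD lower (-1.88 ± 0.43, edgeR adjusted p = 0.00186), 3 of the 6 tested. PGF was called lower under PI3Ki, with 4.05 and 3.73 CPM untreated and 2.41 and 2.65 CPM under PI3Ki (-0.51 ± 0.11, edgeR adjusted p = 0.00438). Of 15 partners and processing genes tested, TGFB1 raised 7 and lowered 3 and PI3Ki lowered 6, where over all genes TGFB1 raised 16.3% and lowered 12.7% and PI3Ki lowered 6.83%. PLAT, which activates PDGFC, changed by 0.84 ± 0.07 and FURIN, a protease that processes VEGFC, by 0.82 ± 0.08 under TGFB1. SEMA3A, an NRP1 ligand, was lowered by both, with log2 changes of -0.45 ± 0.10 (TGFB1) and -0.80 ± 0.10 (PI3Ki). Of 12 signalling genes, 2 were higher (SHC1 and SRC) and 2 lower (PIK3CB and PIK3R1) under TGFB1, close to those shares of all genes. TGFBRi raised CCBE1 and lowered PLXNA2 among the partners. Under PI3Ki 0 of 12 were called by edgeR, with 2 at an unadjusted p under 0.05.

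Open chromatin at the annotated gene starts differed little between sorts. A called peak within 500 bases of the start was tested for 6 of the 10 members (VEGFA, VEGFB, VEGFC, PDGFA, PDGFC and PDGFRB), those with a peak in at least 3 of the 12 libraries. NRP1, PDGFRA and PDGFB had no peak there in any library, and FLT1 had 1, in NGFR-High replicate 1. PDGFA was called higher in NGFR-High (limma, adjusted p = 0.0418), 1 of 6 members, where 1.06% of 13390 gene starts were higher. Its fold enrichment, the height of a peak over background, was 13.4, 12.3 and 17.9 in the Mix, 20.1, 24.6 and 17.1 in the EGFR-High, 28.6, 33.2 and 21.6 in the NGFR-High and 28.0, 23.2 and 19.4 in the EGFR-NGFR-High libraries. NGFR-High and EGFR-NGFR-High thus lay above Mix in all libraries, and the log2 difference of NGFR-High was 0.93 ± 0.21. The call was lost when any of 6 libraries was left out, replicates 1 and 2 of Mix and of NGFR-High, EGFR-High replicate 1 and EGFR-NGFR-High replicate 2 (adjusted p up to 0.197). EGFR-NGFR-High and EGFR-High gave 0 calls in 6 members (limma, 2 members each at an unadjusted p under 0.05), where 0.769% and 0.299% of starts were higher. PDGFRB had 20.2, 19.8 and 18.9 in Mix and 34.8, 27.4 and 26.3 in EGFR-NGFR-High, without overlap, at an adjusted p of 0.113 (limma). The VEGFA start was open to a similar degree in all 12 libraries, between 27.3 and 38.1. Median log2 differences over all starts were 0.08 for EGFR-NGFR-High, -0.07 for EGFR-High and 0.15 for NGFR-High.

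Larger differences lay away from the starts. In regions merged from peaks of at least 3 libraries, a comparison added after the data had been seen, 87 of 151657 regions lay within a member or within 20000 bases of it, of which 43 were intronic, 34 outside the gene, 8 in UTRs and 2 in other exons. In EGFR-NGFR-High 18 of these were called higher and 1 lower than in Mix (limma, adjusted over all regions), where 9.12% of all regions were higher and 2.27% lower. This count depended on single libraries. Without EGFR-NGFR-High replicate 1 only 2 regions were called, without EGFR-NGFR-High replicate 2 or Mix replicate 2 there were 12, without Mix replicate 3 there were 11 and without Mix replicate 1 there were 10. EGFR-NGFR-High replicate 1 had the longest peak list of the 12, with 271153 entries where the others had 213412 to 255764, and the widest median peak, at 294 bases where the others had 264 to 283. A region without a peak was given a fold enrichment of 1, and the part of the list's length in the calls was not tested. A region could enter through peaks of the sorts other than Mix alone, and without a peak in Mix it could not come out lower. For such regions the rule of entry favours a higher call, so their calls are a description. In NGFR-High 13 were higher and 1 lower, where 6.94% were higher and 2.52% lower, and without NGFR-High replicate 1 or Mix replicate 1 there were 5 calls, without Mix replicate 2 there were 7 and without NGFR-High replicate 2 or Mix replicate 3 there were 8. EGFR-High gave 3 and 3, where 2.39% were higher and 3.02% lower, and leaving out any library of EGFR-High or Mix left 2 to 4 calls. With quantile normalization the 3 sorts gave 13 and 1, 10 and 2, and 7 and 2, in the order EGFR-NGFR-High, NGFR-High, EGFR-High. With a peak required in at least 6 libraries, 70 regions at the members gave 14 and 0, 12 and 1, and 4 and 2 in that order. All 120488 such regions gave 12091 and 2682, 10292 and 3282, and 3831 and 4586. Over all regions quantile normalization moved the share of called regions that were higher from 80.0% to 64.9% in EGFR-NGFR-High, from 73.3% to 60.9% in NGFR-High and from 44.2% to 65.9% in EGFR-High.

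Regions higher in EGFR-NGFR-High lay at 6 members, 5 of 12 at PDGFRB, 4 of 7 at PDGFB, 3 of 6 at PDGFA, 3 of 13 at NRP1, 2 of 4 at VEGFC and 1 of 8 at PDGFRA. No region was higher in this sort at VEGFA (0 of 7, with 1 lower), VEGFB (0 of 7), PDGFC (0 of 11) or FLT1 (0 of 12). At these genes NGFR-High had 1 higher region at VEGFB and 1 lower at FLT1. EGFR-High had 1 higher at PDGFC, 2 lower at FLT1 and 1 lower at VEGFA. For 4 of the 6 members with a higher region, the one with the largest difference that overlaps no exon is printed here. These regions were picked by the tested difference itself, so their differences are a description. Given are the 300 bases around its centre in hg38, plus strand. The difference was measured over the whole region, so the printed bases need not hold the peak that differs. Capitals mark the AP-1 letters TGANTCA, searched on both strands.
NRP1 intron, chr10:33248661-33248960: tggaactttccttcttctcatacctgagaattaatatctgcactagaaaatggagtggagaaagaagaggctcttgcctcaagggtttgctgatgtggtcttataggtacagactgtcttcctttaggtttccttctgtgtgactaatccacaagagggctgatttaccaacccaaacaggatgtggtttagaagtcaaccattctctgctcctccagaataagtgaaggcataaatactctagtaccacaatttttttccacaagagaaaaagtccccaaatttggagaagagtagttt
PDGFA outside the gene, chr7:538250-538549: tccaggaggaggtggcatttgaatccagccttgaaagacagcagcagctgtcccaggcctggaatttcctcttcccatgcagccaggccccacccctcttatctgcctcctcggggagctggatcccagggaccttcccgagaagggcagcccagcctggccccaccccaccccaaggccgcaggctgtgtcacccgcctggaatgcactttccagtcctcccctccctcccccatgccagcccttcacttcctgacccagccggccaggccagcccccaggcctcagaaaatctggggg
PDGFB outside the gene, chr22:39205426-39205725: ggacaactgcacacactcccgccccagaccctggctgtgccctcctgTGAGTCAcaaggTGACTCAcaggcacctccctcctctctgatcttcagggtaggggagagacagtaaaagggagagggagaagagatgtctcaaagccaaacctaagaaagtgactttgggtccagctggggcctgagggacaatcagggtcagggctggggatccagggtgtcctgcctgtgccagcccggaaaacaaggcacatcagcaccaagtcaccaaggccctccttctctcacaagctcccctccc
VEGFC intron, chr4:176790019-176790318: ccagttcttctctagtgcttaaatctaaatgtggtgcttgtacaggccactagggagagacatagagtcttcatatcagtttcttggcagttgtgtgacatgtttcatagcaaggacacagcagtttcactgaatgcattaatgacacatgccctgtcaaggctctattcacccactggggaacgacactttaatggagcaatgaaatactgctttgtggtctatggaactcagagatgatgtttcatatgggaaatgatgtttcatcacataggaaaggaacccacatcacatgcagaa

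The NRP1 region lies in an intron 87451 bases into the gene. It had a peak in 1 of 3 Mix libraries (4.36), and NGFR-High gave 3.58, 8.31 and 5.17. All EGFR-NGFR-High libraries had a peak, with fold enrichments of 8.93, 9.45 and 8.93 (log2 difference 2.48 ± 0.71). The other Mix libraries had no peak and were set to 1. The region was also picked for its difference, so the value is a description. A second NRP1 intron region, 44973 bases in, was open in more sorts, with 10.7, 13.2 and 9.79 in EGFR-High, 16.3, 14.9 and 12.7 in NGFR-High and 18.2, 13.7 and 12.4 in EGFR-NGFR-High, against no peak, 4.71 and 4.36 in Mix. It passed in all 3 sorts. Another, 119377 bases in, had peaks in all NGFR-High (5.96, 5.25 and 4.70) and all EGFR-NGFR-High libraries (7.14, 3.31 and 4.47) and in none of the Mix or EGFR-High libraries. Counting every annotated transcript start of NRP1, 10 of the 12 libraries had a peak at one of them, between 3.43 and 9.52.

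The regions that hold the starts of PDGFA and PDGFRB were among the higher ones, with the same differences as at the starts (0.70 and 0.58), which passed in the adjustment over all regions (limma adjusted p = 0.0345 and 0.0183) and not over all starts.

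The PDGFA region lies 18104 bases upstream. Mix gave 5.38, 5.66 and 11.1, EGFR-High 13.7, 14.7 and 11.7, NGFR-High 27.4, 20.6 and 23.5 and EGFR-NGFR-High 32.7, 16.5 and 22.3. Every sorted library was above every Mix library, with a log2 difference of 1.72 ± 0.27 in EGFR-NGFR-High (limma adjusted p = 0.000792) and 1.76 ± 0.27 in NGFR-High. The PDGFB region, 39406 bases from the start and beyond the end of the gene, had no peak in Mix, 1 in EGFR-High (4.26) and 12.5, 7.56 and 6.95 in EGFR-NGFR-High. A region 8776 bases upstream of PDGFB had no peak in Mix, 5.57, 4.81 and 5.64 in NGFR-High and 8.63, 5.67 and 9.92 in EGFR-NGFR-High. PDGFB itself was counted only 30 times in the first experiment, whose cells were expanded after their sort. Under TGFB1 the same line gave 338 PDGFB counts. RNA of the cells used for ATAC-seq was not measured, so their PDGFB level is not known.

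Of the 5 higher PDGFRB regions, one 43170 bases from the start lies within the neighbouring gene CSF1R. The VEGFC region, in an intron 2753 bases in, had no peak in Mix, 8.63, 5.67 and 4.96 in EGFR-NGFR-High and 4.77, 3.5 and 4.23 in NGFR-High. PDGFRA had a region 52357 bases in with no peak in Mix and peaks in all EGFR-High (5.55, 6.15 and 4.89) and EGFR-NGFR-High libraries (8.93, 5.20 and 3.97). A region 31823 bases from the VEGFA start went the other way, with 6.27, 5.18 and 4.36 in Mix, a peak in 1 NGFR-High library and none in the other sorts. Many of these regions had a peak in some libraries and none in others, and a library without a peak was set to a fold enrichment of 1.

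**Figure D5:**
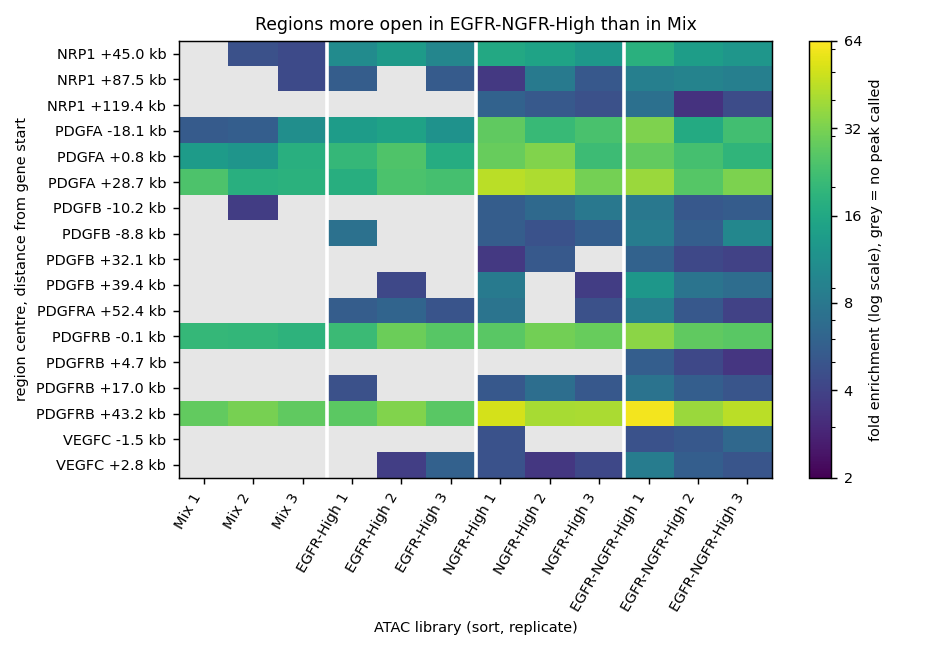
Fold enrichment (log colour scale, grey where no peak was called) of 17 of the 18 regions at the members that were higher in EGFR-NGFR-High than in Mix, as rows named by gene and distance of the region's centre from the gene start in kilobases; columns are the 12 ATAC libraries. Most rows are grey in the 3 Mix libraries, and EGFR-NGFR-High replicate 1 is the brightest column in many rows.

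The AP-1 letters were found in 8 of the 18 higher regions (44.4%) and in 14 of the other 69 (20.3%) at the members, each read as a window of 300 bases. Over all regions the same letters were found in 48.1% of those higher in EGFR-NGFR-High and in 17.4% of the rest, so the members' share was near that of all higher regions. The printed PDGFB region holds 2 matches 5 bases apart. The NRP1, PDGFA and VEGFC windows hold none, which says only that these letters are not in those windows. GGAATG, a TEAD motif, was found in 4 of the 18 (22.2%) and 21 of the 69 (30.4%), where all higher regions had 26.8% and the rest 19.8%. CAGACA, a SMAD motif, was found in 1 (5.56%) and 16 (23.2%), where all higher regions had 24.2% and the rest 22.7%. GGGCGG, the letters of SP and KLF factors, was found in 4 (22.2%) and 14 (20.3%), where all higher regions had 5.79% and the rest 12.9%. ACAAAG, a SOX motif, was found in 4 (22.2%) and 16 (23.2%), where all higher regions had 24.8% and the rest 27.5%. A match is a description and not a binding site.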

How the data were processed

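Single-cell RNA was measured in 3 experiments, and chromatin by ATAC-seq in 12 sorted WM989 libraries. The deposited matrices hold raw UMI counts per gene and cell, made by the authors with Cell Ranger, and the authors filtered cells by genes and mitochondrial percent and clustered them in Seurat. States, clusters and phases were taken from their metadata, and no doublet caller was run. The deposited metadata also hold the mitochondrial percent of each cell. The submitters' processing notes name hg38, Bowtie2 2.3.4.1, SAMtools 1.1 and MACS2 2.1.1.20160309 for ATAC-seq. The deposited peak lists, 1 for each library, give a fold enrichment, a −log10 p-value and a −log10 q-value as the authors' peak caller wrote them, of which the fold enrichment was tested.

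The members and lists were chosen with earlier results of these data known. Counts were summed per library or state and given as CPM of all UMIs. States in WM989 and WM983B were compared by ratios only, with 2 and 0.5 as limits and 1 CPM as minimum. Treatments were tested with edgeR 4.0.16 (R 4.3.3, TMM, quasi-likelihood, two-sided, Benjamini-Hochberg over all genes tested) as treatment plus replicate, on 18389 genes past edgeR's filter on low counts, with 3 residual degrees of freedom (2 for the difference between states). All 4 treatments of a replicate came from 1 culture, and same-numbered libraries deviated together (r from 0.255 to 0.366 over all pairs), so the replicate was kept as a block. The labels name the treatment libraries Mix and Primed; which of r1 and r2 is which was not settled, and the metadata's names were used. The SE given with edgeR changes was derived from the test, as the absolute log2 change over the square root of its F statistic. DESeq2 1.42.0 was an alternative. ATAC-seq was tested with limma 3.58.1 on log2 fold enrichment, with 1 where no peak was called, at GENCODE 44 starts and, added after the data were seen, at regions with a peak in at least 3 libraries. Scripts were tested on simulated data. The text names the 10 members, the other 7 family genes, listed partner and signalling genes that passed a limit or test, and the genes most like a member over cluster sums. ATAC depth is not known from the peak lists. Results on 1 region and 1 gene are not reported here.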

Additional observations from a re-analysis of the deposited data

Results flagged for a closer look

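FLT1 in the primed cells of r2 stood apart in well 8, at 2.64 CPM, where the other 3 wells had 1.12 to 1.29 CPM. PDGFD in the drug-susceptible cells of r2 stood apart in well 5, at 1.55 CPM, where the other 3 had 2.27 to 2.29 CPM. These were 2 of 44 groups of 4 wells tested by the gap of the farthest sample, and chance flags about 1 in 20 groups. By the methods a mixed and a primed culture were each loaded into 2 wells, so the 4 wells of a replicate are neither alike nor independent.

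The TGFB1 change differed between cells classed after treatment as primed and as drug-susceptible, by an interaction term for 4 genes of both families (edgeR). On the log2 scale the change in primed cells was higher by 1.47 for NRP2 and 1.22 for PDGFRB. It was lower for VEGFA (-0.33) and NRP1 (-1.95).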

How the results depend on the processing

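The fit without the replicate block gave 3 called members in place of 5 for PI3Ki over all cells and 1 in place of 2 for PI3Ki in primed cells, and changed no other count of members by over 1.5 times. DESeq2 gave 3 in place of 6 for TGFB1 in drug-susceptible cells, 3 in place of 6 for TGFB1 in primed cells and 1 in place of 2 for PI3Ki in primed cells. When peaks ranked beyond 50000 in a library were left out, 0 in place of 1 start was higher in NGFR-High. The causes were not tested. Leaving out each library in turn gave 9 to 9 called members for TGFB1 over all cells, 5 to 6 in drug-susceptible and 2 to 6 in primed cells, and 2 to 3 for the difference between states. For PI3Ki it gave 3 to 5 over all cells, 1 to 1 in drug-susceptible and 0 to 2 in primed cells, and for TGFBRi 0 to 0 over all cells. NGFR-High starts gave 0 to 1. Regions at the members gave 2 to 20 calls in EGFR-NGFR-High, 2 to 7 in EGFR-High and 5 to 15 in NGFR-High. Without EGFR-High replicate 3, Mix replicate 1 or Mix replicate 2, 2 EGFR-High regions were called, in place of 6. No called change of a member changed sign. Over all EGFR-High regions, however, quantile normalization turned the calls from mostly lower to mostly higher (44.2% to 65.9% higher), and the members' from 3 higher and 3 lower to 7 and 2. ATAC replicate numbers did not pair the libraries (r from -0.044 to 0.10 at starts), and with the number as a replicate block 17 regions were higher in EGFR-NGFR-High, in place of 18. In untreated primed cells of the treatment experiment, low counts limit PDGFB, FLT1 and PDGFRA.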
